A study of Mus musculus with 3 samples.

Results

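Synaptic vesicle and release genes were followed in RNAseq of the mouse incisor enamel organ, the epithelium that lays down enamel. The 40 members were picked by gene symbol from the proteins of the synaptic vesicle, its fusion machinery, the active zone and the vesicular glutamate transporters. The selection rule used the symbol and presence in the count table. Members and classes were chosen with earlier results of these data known. The count table held 20937 genes, and all 40 members were among the 18702 genes left by a filter on low counts. For the analysis they were divided by where they are known to be expressed: 30 neuron-restricted genes, 4 genes used in neurons and elsewhere (Syt7, Syt11, Vamp2 and Cplx2), and 6 broadly expressed relatives (Snap23, Vamp3, Syngr2, Stxbp2, Rab3d and Dnm2).

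The study deleted Stim1, an endoplasmic reticulum calcium sensor, to ask how its loss alters the enamel organ. There was 1 library for each of 3 genotypes, all from male mice aged 4 weeks. Stim1 cKO was Stim1 fl/fl Cre+, Stim1 HT was Stim1 fl/wt Cre+, and Stim1 Ctrl was Stim1 fl/fl Cre-. Floxed Stim1 was thus common to all genotypes, while Stim1 Ctrl lacked the AmelX-iCre transgene. That transgene is driven by the amelogenin gene's regulatory sequence and acts in ameloblasts, so the other cells of the dissected enamel organ keep their Stim1. The whole enamel organ was taken, and whether a library held tissue from 1 animal or several is not given in the sources used here.

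At a synapse, vesicles are filled with transmitter by a transporter in their membrane, held near the active zone by tethers and scaffolds, and fused with the plasma membrane by the SNARE proteins when a synaptotagmin binds calcium. The membrane is then taken back by clathrin adaptors and dynamin. Most of the proteins of this cycle belong to families that also have members in every cell, where they serve general secretion and membrane traffic. In teeth, nerve fibres supply the pulp and the surrounding tissue, but their cell bodies, and with them most of their mRNA, lie in the trigeminal ganglion.

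The Stim1 cKO library held 21496136 counts, the Stim1 HT library 20216507 and the Stim1 Ctrl library 28265960, so 3 counts, taken as the limit of detection, were worth between 0.117 and 0.152 CPM (counts per 1000000). Throughout, CPM were scaled by edgeR's TMM factors. The targeted gene Stim1 stood at 72.8 CPM in Stim1 cKO against 129 for Stim1 HT and 186 for Stim1 Ctrl (edgeR log2 fold change -1.11, adjusted p = 0.106). Genes that mark ameloblasts were present in every library, 10 of 10, with summed levels of 4521 CPM in Stim1 cKO, while Stim1 HT had 31560 and Stim1 Ctrl 23280. Amelx, Ambn and Enam, which carry most of that sum, were over 2-fold below both controls in Stim1 cKO, while Odam, Odaph, Slc24a4 and Wdr72 were over 2-fold above both. The Stim1 cKO library stood apart from the others in markers that do not belong to a tooth. All 9 photoreceptor markers with a row in the table, of 15 looked for, were over 2-fold above both controls, with 1182 CPM in sum in Stim1 cKO against 13.3 and 12.0. Gnat1, the rod transducin subunit, had 4294 counts there, 2 in Stim1 HT and 5 in Stim1 Ctrl. In the same library the lens crystallin Cryaa had 4036 counts, against 86 and 89. Stim1 HT in turn was the library with pituitary hormone transcripts: Pomc had 5859 counts and Gh 4190, where Stim1 cKO had 27 and 1 and Stim1 Ctrl 13 and 1. Since the only Stim1 cKO library carries these markers, no value for that genotype can be given without them. Their part in the results that follow was not tested.

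Transcripts of the neuron-restricted members were more abundant in Stim1 cKO than in either control, while 4 of their 6 broadly expressed relatives were less abundant there. All 30 neuron-restricted genes and all 4 genes of the middle class had their highest CPM in Stim1 cKO. In all, 36 of 40 members were higher there than in both controls, against 43.6% of all genes tested. The 4 exceptions, Snap23, Vamp3, Syngr2 and Dnm2, were all broadly expressed and were lower in Stim1 cKO than in both controls, a pattern seen in 42.1% of all genes. More than a 2-fold excess over both controls was found for 29 members, 26 of them neuron-restricted and 3 of the middle class, where 19.1% of all genes tested had such an excess. No member lay over 2-fold below both controls, which 8.23% of all genes did. Summed over the 30 neuron-restricted genes the level was 1525 CPM in Stim1 cKO, where Stim1 HT had 353 and Stim1 Ctrl 289, that is 4.32-fold and 5.28-fold higher in Stim1 cKO. Over the 6 broadly expressed genes it was 344, 404 and 410 CPM. In a tissue that was not sorted, more cells of a type and more RNA per cell cannot be told apart.

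**Figure D1:**
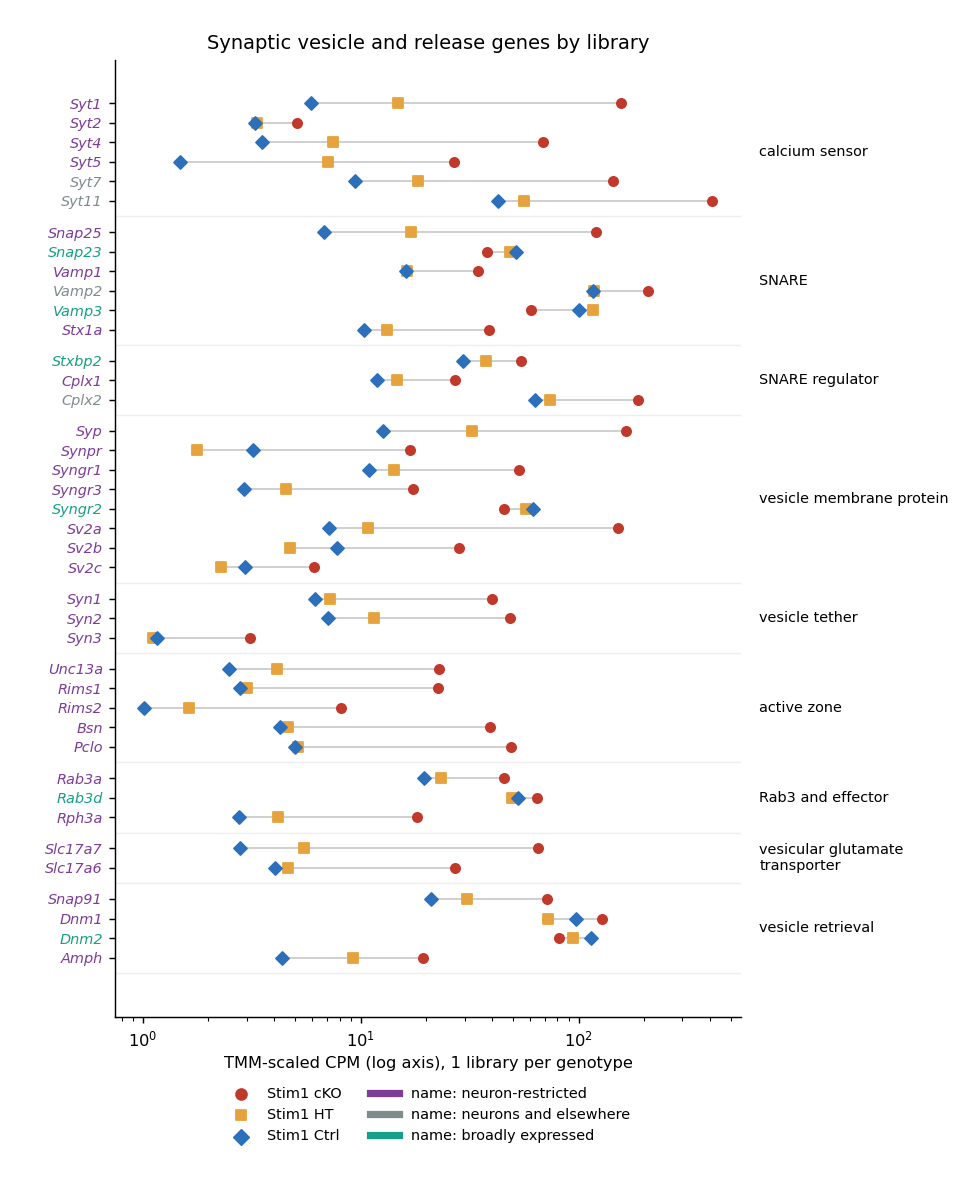
TMM-scaled CPM of each member on a log axis, with 1 point per library (circle, Stim1 cKO; square, Stim1 HT; diamond, Stim1 Ctrl) and the members grouped by role; name colours give the class. The circle lies to the right of both other points for 36 of 40 members, and to the left of both for Snap23, Vamp3, Syngr2 and Dnm2.

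With 1 library per genotype, Stim1 cKO was tested against Stim1 HT and Stim1 Ctrl as a group, as the study did, and the test's only spread is the one between these controls, which themselves differ in genotype. By edgeR's quasi-likelihood test, 0 of 40 members reached a Benjamini-Hochberg adjusted p under 0.01 with a fold change over 2, the study's thresholds. Higher in Stim1 cKO by that rule were 0.0749% of all genes tested. At an adjusted p under 0.05 with the same fold, edgeR called 23 members, all higher in Stim1 cKO, against 6.8% of all genes. At an unadjusted p under 0.05 it had 32 members higher (18.5% of all genes) and 1, Vamp3, lower (13.4% of all genes). DESeq2, the study's own tool, called 23 members higher at an adjusted p under 0.01, against 5.92% of all genes, and these were the same 23 genes as edgeR's at 0.05. Of the 23, 20 were neuron-restricted, 3 were of the middle class and 0 were broadly expressed. The median edgeR log2 fold change was 2.49 over the neuron-restricted members, with a range of 0.60 to 4.08, 2.26 over the middle class and -0.38 over the broadly expressed members, from -0.84 to 0.70. Over all genes tested it was -0.01.

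**Figure D2:**
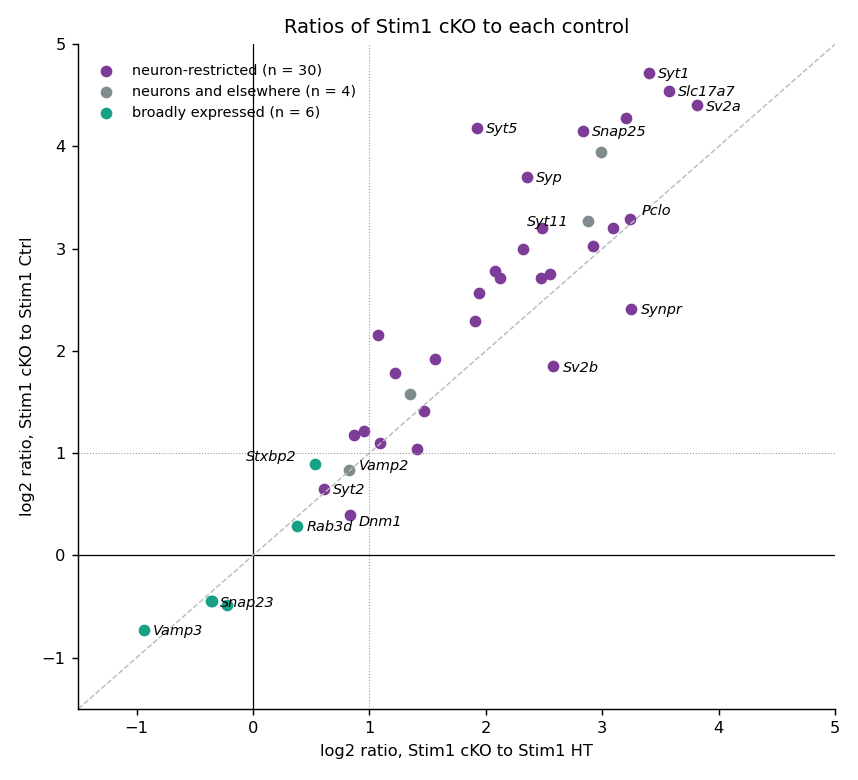
Each member's log2 ratio of Stim1 cKO to Stim1 HT (horizontal) and to Stim1 Ctrl (vertical), from TMM-scaled CPM of 1 library each; dotted lines mark 2-fold and the dashed line equal ratios. The 26 neuron-restricted genes with over 2-fold excess lie in the upper right, and 4 of the 6 broadly expressed genes lie below 0 on both axes.

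Among the synaptotagmins, the calcium-binding vesicle proteins that trigger fusion, the excess was largest for Syt1, the sensor of fast release in forebrain neurons. Syt1 (chr10:108497650-109010982 in GRCm38) stood at 156 CPM in Stim1 cKO against 14.8 for Stim1 HT and 5.91 for Stim1 Ctrl. It was thus 10.6-fold above the nearer control, with an edgeR log2 fold change of 3.92 (adjusted p = 0.0234) and a DESeq2 SE of 0.54. Syt4, an isoform linked to large vesicles, stood at 68.7, 7.46 and 3.54 CPM in the same order of libraries (log2 fold change 3.65, edgeR adjusted p = 0.0208). Syt7, which serves slower release at synapses and lysosome exocytosis elsewhere, stood at 144, 18.2 and 9.40 CPM (3.39, edgeR adjusted p = 0.0206). Syt11, which does not bind calcium and is also made outside neurons, had 412 CPM in Stim1 cKO, while Stim1 HT had 56.1 and Stim1 Ctrl 42.8 (3.06, edgeR adjusted p = 0.0154). It was the most abundant member of all in Stim1 cKO also per exon length, at 265 TPM (transcripts per 1000000) against 30.2 and 24.5. For these 4 genes the controls differed from each other by less than either did from Stim1 cKO.

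Not every synaptotagmin had that pattern. Syt2, the fast sensor of hindbrain and motor synapses, had few reads in all libraries, with 124, 66 and 84 counts, and its log2 fold change of 0.63 had an edgeR adjusted p of 0.42. Syt5 had 26.7 CPM in Stim1 cKO, where Stim1 HT had 7.06 and Stim1 Ctrl 1.48. Its controls differed by more than Stim1 HT differed from Stim1 cKO, and it was not called (log2 fold change 2.66, edgeR adjusted p = 0.108).

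The SNARE proteins zip together to pull vesicle and plasma membrane into contact. Snap25, the plasma membrane SNARE of nerve terminals, stood at 121 CPM in Stim1 cKO against 17.0 for Stim1 HT and 6.80 for Stim1 Ctrl (log2 fold change 3.35, edgeR adjusted p = 0.0295). Its broadly expressed relative Snap23 went slightly the other way with 38.0, 48.7 and 51.7 CPM (-0.40, edgeR adjusted p = 0.297). Stx1a, the syntaxin that pairs with Snap25, stood at 39.0, 13.3 and 10.3 CPM (1.73, edgeR adjusted p = 0.0341). The 3 neuron-restricted SNARE genes were all over 2-fold above both controls, but by less for Vamp1, a vesicle SNARE, at 34.6, 16.3 and 16.1 CPM (1.09, edgeR adjusted p = 0.0609). Vamp2, the main vesicle SNARE of forebrain synapses, is also used in other secretory cells and was already at 118 and 117 CPM in the controls, against 209 in Stim1 cKO (0.82, edgeR adjusted p = 0.107). Vamp3, the form of recycling endosomes in most cells, was lower in Stim1 cKO at 60.5 CPM than in Stim1 HT at 116 and Stim1 Ctrl at 100.1. That was the lowest log2 fold change of the 40 members, -0.84, with an edgeR adjusted p of 0.114.

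Complexins clamp and then promote the assembled SNARE complex, and Munc18 proteins such as Stxbp2 guide its assembly. Cplx2 stood at 188 CPM in Stim1 cKO, while Stim1 HT had 74.0 and Stim1 Ctrl 63.1 (log2 fold change 1.46, edgeR adjusted p = 0.0372). Cplx1 had 27.0, 14.7 and 11.9 CPM, so it did not reach 2-fold over Stim1 HT (1.02, edgeR adjusted p = 0.0983). Stxbp2, the form of epithelial and blood cells, had 54.6, 37.7 and 29.5 CPM, the highest log2 fold change among the broadly expressed genes at 0.70, and was not called (edgeR adjusted p = 0.144).

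The proteins that span the vesicle membrane included the member with the largest log2 fold change. Sv2a (chr3:96181151-96195521 in GRCm38), a glycoprotein of nearly all synaptic vesicles, stood at 151 CPM in Stim1 cKO, where Stim1 HT had 10.8 and Stim1 Ctrl 7.15. That is a 14.0-fold excess over the nearer control and a log2 fold change of 4.08 (edgeR adjusted p = 0.0135, the smallest among the members, and DESeq2 SE 0.41). Its sister genes were less far apart: Sv2b had 28.2, 4.72 and 7.81 CPM (2.16, edgeR adjusted p = 0.0419), and Sv2c only 147, 45 and 76 counts (1.21, edgeR adjusted p = 0.178). Syp, synaptophysin, the most abundant vesicle membrane protein of nerve terminals, had 165 CPM against 32.5 and 12.7 (2.87, edgeR adjusted p = 0.0406). An antisense gene covers 16.8% of its exon length, and how the counting treated strand is not given. Synpr, a synaptophysin relative, stood at 16.9, 1.78 and 3.19 CPM (2.76, edgeR adjusted p = 0.0401). Among the synaptogyrins, Syngr1 had 53.5, 14.2 and 10.96 CPM (2.09, edgeR adjusted p = 0.0225) and Syngr3 17.4, 4.52 and 2.92 (2.22, edgeR adjusted p = 0.0479). Syngr2, the form of non-neuronal cells, had 45.3, 57.6 and 62.0 CPM (-0.40, edgeR adjusted p = 0.31). All 7 neuron-restricted genes of this role were thus over 2-fold above both controls, and the broad one was below both.

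Synapsins tie vesicles to actin and to each other in the reserve pool. Syn1 stood at 40.2 CPM in Stim1 cKO against 7.26 for Stim1 HT and 6.14 for Stim1 Ctrl (log2 fold change 2.59, edgeR adjusted p = 0.0184). Syn2 stood at 48.4, 11.5 and 7.07 CPM (2.39, edgeR adjusted p = 0.0274). Syn3, the member with the fewest counts in sum, had 75, 22 and 30 and was not called (1.44, edgeR adjusted p = 0.153). Exons of Syn3 overlap those of the antisense gene Timp3 over 14.1% of their length.

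The active zone is the patch of presynaptic membrane where vesicles dock, and its scaffold proteins are made almost solely by neurons and a few sensory and endocrine cells. Its 5 members had the narrowest range of log2 fold changes of any role, 2.62 to 3.26, with 365 counts in sum in Stim1 HT, 401 in Stim1 Ctrl and 3431 in Stim1 cKO. Pclo and Bsn, the giant scaffold proteins piccolo and bassoon, had nearly equal levels in both controls. For Pclo they were 48.9 CPM in Stim1 cKO, while Stim1 HT had 5.18 and Stim1 Ctrl 5.01 (3.26, edgeR adjusted p = 0.0136), and for Bsn 39.2, 4.62 and 4.28 (3.14, edgeR adjusted p = 0.0154). Rims1, which links Rab3 on the vesicle to calcium channels, had 22.7, 3.00 and 2.80 CPM (2.97, edgeR adjusted p = 0.0219). Unc13a, the priming factor Munc13-1, had 22.9, 4.11 and 2.49 CPM (2.80, edgeR adjusted p = 0.0317). Rims2 had 196, 32 and 26 counts and missed the thresholds of both tools (2.62, edgeR adjusted p = 0.05003).

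Rab3 GTPases sit on vesicles before fusion and bind effectors such as rabphilin. Rph3a, rabphilin, stood at 18.1 CPM in Stim1 cKO, where Stim1 HT had 4.16 and Stim1 Ctrl 2.76 (log2 fold change 2.38, edgeR adjusted p = 0.0409). Rab3a, the form of synaptic vesicles, was less apart at 45.3, 23.4 and 19.5 CPM (1.08, edgeR adjusted p = 0.0595). Rab3d, the form of exocrine and mast cell granules, had 64.3, 49.4 and 52.5 CPM (0.34, edgeR adjusted p = 0.371).

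The vesicular glutamate transporters load vesicles and mark glutamatergic neurons. Slc17a7 (chr7:45163949-45176142 in GRCm38), which encodes VGLUT1 of cortical, cerebellar and photoreceptor terminals, stood at 65.2 CPM in Stim1 cKO against 5.48 for Stim1 HT and 2.80 for Stim1 Ctrl. It had the second largest log2 fold change of the members, 3.98 (edgeR adjusted p = 0.0176, DESeq2 SE 0.53). Slc17a6, which encodes VGLUT2 of thalamic, brainstem, sensory and retinal ganglion neurons, stood at 27.1, 4.62 and 4.04 CPM (2.65, edgeR adjusted p = 0.023). Both were called by DESeq2, Slc17a7 with an adjusted p of 7.87e-12 and Slc17a6 with one of 2.2e-05.

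Of the 4 genes of vesicle retrieval, 1 was called by DESeq2. Snap91, the clathrin adaptor AP180, stood at 71.8 CPM in Stim1 cKO, while Stim1 HT had 30.9 and Stim1 Ctrl 20.95 (log2 fold change 1.47, edgeR adjusted p = 0.0471). Amph, amphiphysin, which recruits dynamin, had 19.3, 9.19 and 4.35 CPM, and its controls differed from each other by slightly more than Stim1 HT did from Stim1 cKO (1.52, edgeR adjusted p = 0.128). Dnm1, the neuronal dynamin that pinches vesicles off, differed less, at 129, 72.3 and 97.8 CPM (0.60, edgeR adjusted p = 0.232). Dnm2, its counterpart in all cells, had 81.3, 94.5 and 114 CPM (-0.36, edgeR adjusted p = 0.41). Dnm1 had the lowest log2 fold change of the 30 neuron-restricted genes, followed by Syt2, Cplx1 and Rab3a. These 4 were also the neuron-restricted genes without a 2-fold excess over both controls.

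Levels of different members can be compared only per exon length, for which TPM were computed. In Stim1 Ctrl the highest TPM among the members were those of Syngr2 (104), Vamp3 (104) and Vamp2 (91.8), and in Stim1 HT those of Vamp3 (112), Syngr2 (90.8) and Vamp2 (87.0). In Stim1 cKO they were those of Syt11 (265), Vamp2 (183), Cplx2 (128), Sv2a (109) and Syp (106). The median of the 30 neuron-restricted genes was 24.7 TPM in Stim1 cKO, where Stim1 HT had 4.77 and Stim1 Ctrl 2.75, while that of the 6 broadly expressed genes was 51.2, 41.3 and 50.7. All 30 neuron-restricted genes had counts in both control libraries as well, as did every gene listed. The highest of them in the controls, Dnm1, had 38.6 TPM in Stim1 HT and 55.7 for Stim1 Ctrl, while the lowest, Syn3, had 0.25 TPM in Stim1 HT and 0.28 in Stim1 Ctrl, from the 22 and 30 counts given above.

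A comparison within pairs of relatives needs no scaling between libraries. In each of 7 pairs of members, the share of the pair's counts held by the neuron-restricted gene, or in 1 pair by Vamp2 of the middle class, was highest in Stim1 cKO, with 95% Wilson intervals, which cover counting error only, apart from those of both controls. Snap25 made up 76.1% of the counts of Snap25 and Snap23 in Stim1 cKO (interval 74.7 to 77.4), 25.8% of them in Stim1 HT (23.5 to 28.3) but 11.6% of them in Stim1 Ctrl (10.1 to 13.3). The intervals of the controls did not overlap either. Syngr1 held 54.2%, 19.8% and 15.0% beside Syngr2, and Syngr3 held 27.7%, 7.28% and 4.49% beside the same gene. Dnm1 held 61.3%, 43.3% and 46.1% beside Dnm2.

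Vamp1 held 36.4% of its counts with Vamp3 in Stim1 cKO against 12.3% for Stim1 HT and 13.9% for Stim1 Ctrl. Vamp2 held 77.5%, 50.5% and 53.9% beside Vamp3. Rab3a held 41.3%, 32.1% and 27.1% beside Rab3d, the pair whose edgeR log2 fold changes lay closest together, 0.74 apart. In no pair was the step between the controls as large as the step from Stim1 cKO to the nearer of them. Over the 7 pairs the log2 ratio of that gene to its broad relative was between 0.57 and 4.60 higher in Stim1 cKO than in a control, and it differed between Stim1 HT and Stim1 Ctrl by -0.20 to 1.41.

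In 3 more pairs only 1 gene was a member, and the order was the same. Syp held 60.0% of its counts with Sypl, a relative found in most tissues, in Stim1 cKO, while Stim1 HT had 19.8% and Stim1 Ctrl 8.25%. Snap91 held 30.2%, 12.3% and 6.79% beside Picalm, the general clathrin adaptor of its family. Amph held 12.1%, 1.91% and 0.866% beside Bin1, and here the broad gene itself was lower in Stim1 cKO at 140.3 CPM against 472 and 499 (log2 fold change -1.79, edgeR adjusted p = 0.0403). Which form was the more abundant can be read only per exon length. Exon lengths are the same in every library, so on that scale the order of the libraries within a pair is fixed by the counts. Snap25 then made up 66.8% of its pair in Stim1 cKO, 18% in Stim1 HT and 7.67% for Stim1 Ctrl. Vamp2 (72.3%, 43.6% and 47% beside Vamp3), Rab3a (57%, 47.2% and 41.1%) and Dnm1 (61.6%, 43.7% and 46.5%) likewise passed their broad relative in Stim1 cKO alone. Syngr1 stayed below Syngr2 in every library, with 30.4%, 8.36% and 6.13%.

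**Figure D3:**
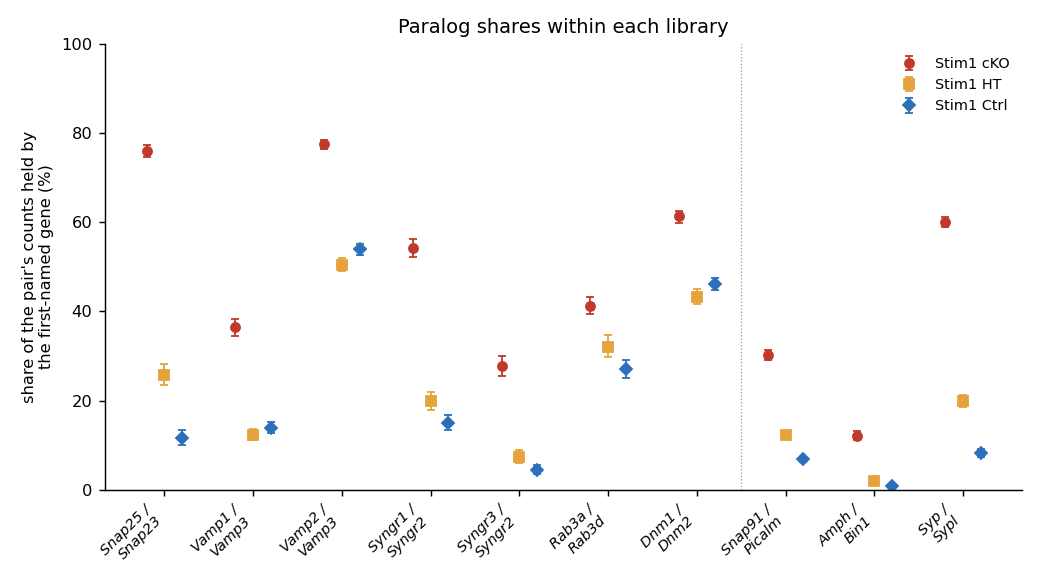
Share of a pair's counts held by the first-named gene, neuron-restricted save for Vamp2, in each library, in percent, with 95% Wilson intervals of counting error; the 3 pairs right of the dotted line have a gene that is not a member. In every pair the Stim1 cKO circle is highest, from 12.1% for Amph beside Bin1 to 77.5% for Vamp2 beside Vamp3.

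The promoters of the members were looked at because the neuron-restricted genes stood higher together. RefSeq start sites (GRCm38.p6) were matched by symbol for 31 of 40 members, which gave 42 windows reaching from 250 bases before to 50 after a start. No window was matched for Syt4, Syt5, Syt7, Snap25, Vamp2, Vamp3, Syngr3, Syn3 and Rims2. Each window was searched on both strands for the letters CAGNACCNNGGNCAG, a short form of the RE1 element that binds the repressor REST, which keeps many neuronal genes silent in other cells. These letters were found in 3 of 42 member windows (7.14%) and in 32 of 32851 windows of all genes (0.0974%). The search was decided on after the expression values were known, and a match is a string of letters and not a measured binding site. All 3 windows belonged to neuron-restricted genes called by DESeq2. Of the 42 windows, 35 belonged to neuron-restricted genes, and DESeq2 called 20 of the 30 neuron-restricted members. No link of the letters to a class or a call can thus be read from 3 windows. The windows are printed here to show where the letters fall, 5′ to 3′ on the gene's strand with the match in capitals.
Syn1, chrX:20920869-20921168, minus strand: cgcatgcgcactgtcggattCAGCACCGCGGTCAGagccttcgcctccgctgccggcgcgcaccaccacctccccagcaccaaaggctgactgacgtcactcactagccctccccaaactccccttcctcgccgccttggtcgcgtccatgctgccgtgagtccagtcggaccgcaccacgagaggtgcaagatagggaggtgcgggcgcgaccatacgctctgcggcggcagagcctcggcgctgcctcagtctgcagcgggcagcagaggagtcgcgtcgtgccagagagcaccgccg
Rph3a, chr5:121009489-121009788, minus strand: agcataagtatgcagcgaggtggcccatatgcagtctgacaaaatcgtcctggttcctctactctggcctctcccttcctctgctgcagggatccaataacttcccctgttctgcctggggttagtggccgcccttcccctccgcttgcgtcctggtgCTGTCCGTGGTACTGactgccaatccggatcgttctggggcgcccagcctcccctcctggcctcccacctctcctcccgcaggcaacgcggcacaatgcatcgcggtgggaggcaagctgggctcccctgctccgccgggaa
Slc17a6, chr7:51621580-51621879, plus strand: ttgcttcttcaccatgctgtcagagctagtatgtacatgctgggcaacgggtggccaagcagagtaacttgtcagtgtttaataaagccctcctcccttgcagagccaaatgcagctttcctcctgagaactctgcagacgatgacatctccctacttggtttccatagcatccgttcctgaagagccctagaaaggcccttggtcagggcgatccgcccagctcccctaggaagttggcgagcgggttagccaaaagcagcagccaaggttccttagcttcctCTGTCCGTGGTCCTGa
In Syn1 the match lies at positions -230 to -216, counted from the start base as 0, and reads CAGCACCGCGGTCAG on the gene's strand. In Rph3a it lies at -92 to -78 and reads CAGTACCACGGACAG on the opposite strand. In Slc17a6 it lies at 34 to 48, also on the opposite strand, and reads CAGGACCACGGACAG. Syn1, Rph3a and Slc17a6 were 5.54-fold, 4.34-fold and 5.87-fold above the nearer control. The GC box letters GGGCGG, on either strand, were in 61.9% of member windows and 35.7% of all windows. Median GC content was 61.2% in member windows and 52.7% in all windows. Among the members it was 61.3% for windows of neuron-restricted and of broadly expressed genes alike.

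Stim1 HT and Stim1 Ctrl were not equal in these genes. Of 40 members, 31 were higher in Stim1 HT, where 50.3% of all genes tested were. Stim1 HT and Stim1 Ctrl were over 2-fold apart in 6 of 40 members (15%), near the 13.5% of all genes as far apart in either direction. These were Syt1, Syt4, Syt5, Snap25, Syp and Amph, all higher in Stim1 HT. All were of the neuron-restricted class, which holds 30 of the 40 members. On the log2 scale the difference was 2.26 for Syt5, 1.36 for Syp, 1.32 for both Syt1 and Snap25, and 1.08 for Syt4 and Amph. In the opposite direction Synpr (-0.84) and Sv2b (-0.73) were lowest. The median log2 ratio between the controls, Stim1 HT over Stim1 Ctrl, was 0.37 over the neuron-restricted genes and -0.09 over the broadly expressed ones. In 36 of 40 members this gap was still smaller than the distance of Stim1 cKO to either control, against 59% of all genes tested, the exceptions being Syt5, Dnm1, Dnm2 and Amph. The 2 pituitary markers with a row in the table, of 7 looked for, summed to 510 CPM in Stim1 HT, 0.544 in Stim1 Ctrl and 1.16 in Stim1 cKO, and pan-neuronal markers to 466, 344 and 2919 in that order. Their part in the difference between the controls was not tested.

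**Figure D4:**
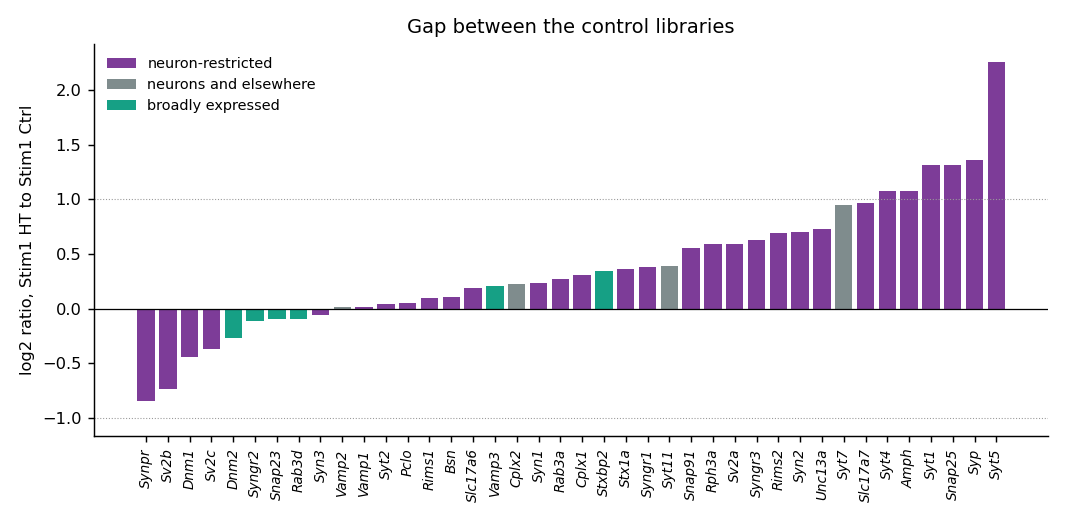
Log2 ratio, Stim1 HT over Stim1 Ctrl, for each of the 40 members, ordered from lowest to highest, from 1 library each; dotted lines mark 2-fold and bar colours the class. Bars above 0 belong to 31 members, and the 6 above the upper dotted line are all neuron-restricted, the class of 30 of the 40 members.

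Other genes of the release pathway were read from lists made for this comparison. Of 42 further genes of neuronal release, 41 had a row, and 26 of these were over 2-fold above both controls and 2 over 2-fold below both. DESeq2 at an adjusted p under 0.01 and edgeR at one under 0.05 each called 13 higher and 1 lower, and the median log2 fold change was 1.72. Rab3c, another Rab3 form, had 2156 counts in Stim1 cKO, where Stim1 HT had 91 and Stim1 Ctrl 136. A pair of genes had almost no counts in the controls: Cplx3, the complexin of retinal ribbon synapses, had 296, 1 and 1 counts, and Slc32a1, the vesicular GABA transporter, 246, 4 and 2. The genes over 2-fold below both controls were Syt17 and Sypl2, named here after their values were seen. Sypl2, a synaptophysin relative known from skeletal muscle, had 24.2, 214 and 296 CPM.

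Of 41 further genes of general membrane fusion and retrieval, 1 was over 2-fold above both controls, Stx3, and 2 were over 2-fold below both, Bin1 and Gosr2. By any amount, 24 of the 41 were lower than both controls. Their median log2 fold change was -0.27. Stx3, the syntaxin of apical membranes and of ribbon synapses, stood at 66.0 CPM in Stim1 cKO against 10.8 for Stim1 HT and 6.45 for Stim1 Ctrl (log2 fold change 2.94, edgeR adjusted p = 0.0201).

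Cell type markers give the surroundings of the members' values. Of 16 pan-neuronal markers, 12 were over 2-fold above both controls, with a median log2 fold change of 2.61, close to the 2.49 of the neuron-restricted members. Celf4, a neuronal RNA-binding protein, had 436 CPM in Stim1 cKO, while Stim1 HT had 13.7 and Stim1 Ctrl 7.11. The neurofilament genes Nefl, Nefm and Nefh did not share the excess. Nefm, at 41.4, 42.7 and 71.3 CPM, and Nefh, at 10.45, 14.3 and 14.1, were below both controls. Nefl, at 49.99, 37.4 and 50.2 CPM, lay between the controls. Uchl1, at 129, 66.7 and 40.1 CPM, was above both but did not reach 2-fold over Stim1 HT. Of 10 markers of sensory ganglion neurons, which supply teeth, 1 was over 2-fold above both controls, Scn9a, and 5 were below both, 3 of them over 2-fold, Scn10a and Calca among these. Their sums were 106 CPM in Stim1 cKO, where Stim1 HT had 84.98 and Stim1 Ctrl 78.8. Scn9a alone gave 62.6, 9.70 and 6.37 CPM of these. Between the controls 6 of the 10 were over 2-fold apart, against 13.5% of all genes tested. Calca was among these, with 11, 665 and 91 counts. The nociceptor sodium channel Scn10a had 1 count in Stim1 cKO against 8 for Stim1 HT and 162 for Stim1 Ctrl. Schwann cell markers, which follow peripheral nerve, summed to 1033, 1899 and 2627 CPM, with 0 of 10 over 2-fold above both controls and 6 below both, 3 of them over 2-fold. Fibroblast markers summed to 35390, 49420 and 76470 CPM, with 8 of 8 below both controls and 4 of them over 2-fold.

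Markers of central neural tissue and eye were counted in the same way. Of 15 markers of retinal interneurons and ganglion cells 12 had a row, and 8 of these were over 2-fold above both controls, with sums of 292, 119 and 140 CPM. Of 6 cortical neuron markers 5 had a row, and Neurod6, Neurod2 and Tbr1 were over 2-fold above both, Neurod6 with 252, 2 and 1 counts. Central glia markers, 9 of 10 with a row, had 4 over 2-fold above both and sums of 602, 311 and 307 CPM. Glul alone gave 335, 218 and 237 CPM of these. The controls were over 2-fold apart in 4 of the 9, against 13.5% of all genes tested, all higher in Stim1 HT. These were Gfap (10.5, 17.4 and 2.92 CPM), Olig1 (14.3, 6.85 and 0.311), Olig2 (10.3, 5.89 and 0.117) and Mog. Mog had only 11, 7 and 3 counts. Of 12 lens markers 5 had a row, with 4 over 2-fold above both and sums of 198, 21.1 and 19.5 CPM. The other, Gja3, was over 2-fold below both, with 8, 195 and 244 counts. A gene with no count in some library has no row in the table, so the markers without a row cannot be placed. The part of these cell types in the members' levels was not tested.

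**Figure D5:**
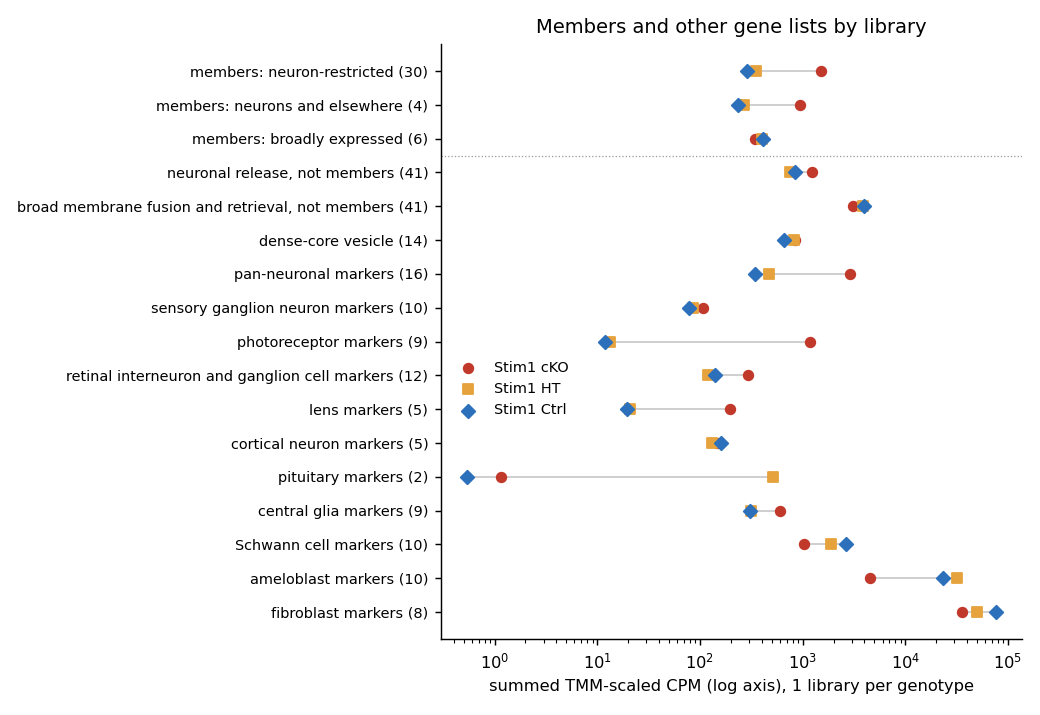
Summed TMM-scaled CPM, on a log axis, of the 3 classes of members (above the dotted line) and of the other gene lists, with 1 point per library and the number of genes in brackets. Stim1 cKO is highest for the neuron-restricted members, the pan-neuronal markers and the photoreceptor markers (1182 CPM against 13.3 and 12.0), and lowest for Schwann cell and fibroblast markers and for the ameloblast sum, which Amelx, Ambn and Enam carry.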

How the data were processed

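RNA of whole incisor enamel organs was sequenced in 3 libraries, 1 per genotype, so that replicate error within a genotype could not be estimated. Per the labels and the methods of the study, the authors checked reads with FastQC, trimmed them, aligned the pairs with STAR and deposited 1 table of raw counts per gene, which they tested with DESeq2. The counting tool, strand setting, genome build and annotation are not given in the sources used here, and the library kit is named differently in the labels and in the methods. The table lists genes by symbol, its smallest count is 1, and 25 rows carry a date in place of a symbol and were left in. Columns of fold changes in the supplement of the study were not used.

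Counts were tested with edgeR 4.0.16 (R 4.3.3): TMM factors (1.13 for Stim1 cKO, 0.975 for Stim1 HT, 0.911 for Stim1 Ctrl), filterByExpr, the quasi-likelihood fit of Stim1 cKO against both controls with 1 residual degree of freedom, and Benjamini-Hochberg adjustment over 18702 genes, with DESeq2 1.42.0 as an alternative. The scripts were tested on simulated data with known changes. TPM used the exon lengths of GENCODE M21, in which 20676 symbols had exactly 1 gene, all 40 members included. Exons of 3 members overlapped another gene by more than 10% (Syt4, Syp and Syn3). The members, classes, pairs and lists were chosen with earlier results of these data known. Values were given for every member, and outside the members for the partners in pairs and for up to 3 genes per list with the largest absolute log2 fold change. Further genes of a list were named, some with values, after their values were seen. Among them were Syt17, Sypl2, Chga, Chgb, Scg2, Cpe, Gja3, Uchl1, Nefl, Nefm and Nefh. Glul, Gfap, Olig1, Olig2, Mog and the ameloblast genes were named in the same way. Other factors, filters and thresholds and the removal of each control were tried as alternatives. A further pair and a further marker gene are not reported here.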

Additional observations from a re-analysis of the deposited data

How the results depend on the processing

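The count of members past the thresholds depended on the test. By edgeR it was 0 with TMM, where 0.0749% of all genes tested were called higher. It was 2 with upper-quartile factors (Sv2a and Pclo, both neuron-restricted; 0.668% of all genes), 15 with no filter on low counts (13 neuron-restricted; 3.28%), 23 at an adjusted p under 0.05 (20 neuron-restricted; 6.8%) and 30 at an unadjusted p under 0.05 with the same fold (27 neuron-restricted; 16.1%). By DESeq2 it was 23 (20 neuron-restricted; 5.92%). No broadly expressed member was called under any of these settings. The median log2 fold change of the neuron-restricted members was 2.22 without Stim1 Ctrl and 2.71 without Stim1 HT, values that have no test. That of the broadly expressed members was -0.38 with TMM, -0.25 with upper-quartile factors, -0.12 with library size only, -0.27 with a mean of at least 50 counts, which also left out Syn3, -0.45 without Stim1 HT and -0.28 without Stim1 Ctrl. Library size only moved the median of all genes to 0.25, and upper-quartile factors to 0.12. Of 359 values of single members under the alternatives, 359 kept their sign. Members over 2-fold above both controls numbered between 28 and 32. For the pair shares the alternatives were exon length and the removal of a control. Neither could have moved Stim1 cKO from the highest place, so they do not test the 10 pairs. No paired analysis was possible because each genotype had 1 library. Depth limits Syn3 and Rims2 most, with 22 to 32 counts in the controls.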

Other observations

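Dense-core vesicles carry peptides and hormones rather than fast transmitters. Of 14 such genes, 5 were over 2-fold above both controls in Stim1 cKO, with Cadps, a priming factor, at 49.2 CPM in Stim1 cKO, while Stim1 HT had 8.48 and Stim1 Ctrl 5.40, and Vgf, a neuropeptide precursor, at 15.5, 1.88 and 2.57. The granins, soluble cargo proteins, were picked out after their values were seen, and they parted the controls. Chga stood at 71.6 CPM in Stim1 cKO, where Stim1 HT had 140 and Stim1 Ctrl 3.38, Chgb at 31.7, 21.3 and 2.68, and Scg2 at 36.1, 30.6 and 3.89. On the log2 scale Chga was 5.37 higher in Stim1 HT than in Stim1 Ctrl, a larger step than for any member. Cpe, a peptide-processing enzyme made in many tissues, was level at 329, 350.3 and 346 CPM. Stim1 HT is also the library with the high counts of Gh and Pomc, and their part in these values was not tested.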
